A study of Mus musculus with 12 samples.

Results

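The basement membrane is the sheet of extracellular matrix on which epithelia and endothelia rest. Laminins, trimers of an alpha, a beta and a gamma chain, and type IV collagen each form a network in it, nidogen and perlecan link the networks, and fibronectin and the matricellular protein Sparc are found in or beside it. In the yolk sac such a sheet lies between the visceral endoderm and the mesoderm that carries blood islands and vessels. In rodents the parietal endoderm also lays down a thick one, Reichert's membrane. The 10 genes asked about were Lama1, Lamb1, Lamb2 and Lamc1 (laminin chains), Col4a1 and Col4a2 (the main type IV collagen chains), Nid1 (nidogen), Hspg2 (perlecan), Sparc and Fn1 (fibronectin), and their probes were taken by gene name, current or older. Of the 10 genes 9 were found, with 15 of the 41174 distinct probes on the array. Lamb1 was listed under an older symbol. No probe was named Hspg2, but 1 probe that the files describe as perlecan and name by an accession is given beside the members. Another probe so described had Cy5 well above background on 0 of 12 arrays and was not tested.

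RNA of whole yolk sacs of the CD1 background was measured on 12 arrays in 4 groups of 3 biological replicates: Arid1a mutant at E9.5, wild-type at E9.5, mutant at E8.5 and wild-type at E8.5, where E is the embryonic day. Mutants were homozygous for the V1068G point mutation of Arid1a, also called Baf250a, a DNA-binding protein of SWI/SNF, the complex that moves nucleosomes. The labels name no promoter or Cre that would limit the mutation to some cells, and do not give whether a replicate was 1 yolk sac or a pool. Yolk sac RNA was labelled with Cy5 and hybridized against the same reference in Cy3, RNA of whole wild-type neonatal mice of mixed 129Sv and C57BL/6 background. Each value below is a log2 ratio of yolk sac over that reference, so 0 means the level of the reference, and differences between groups are on the same log2 scale.

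Between 46.7% and 50.1% of the probes of an array were well above background in Cy5, and the number of arrays limits the precision (median standard error of a difference over all genes, 0.07). Every scan covered 4 arrays, 1 per group, and a group always took the same place on its slide, so effects of place and of group cannot be told apart. Prl4a1, a prolactin-family gene of the trophoblast, was high in replicate 3 of mutant E9.5 (3.74), wild-type E9.5 (4.31) and mutant E8.5 (5.70), so counts are also given without these arrays. Xist, the transcript that coats an inactive X chromosome, was low on wild-type E9.5 replicate 2 and on mutant E8.5 replicates 2 and 3. A list of heart and neural genes of the embryo averaged -1.37 on wild-type E8.5 replicate 2, with 2 of 6 above the reference. On every other array it averaged -2.58 to -2.18, with 0 of 6 above. The yolk sac label was checked against 12 visceral endoderm markers, of which 11 stood above the reference on every array. The mutation changes a codon, so the Arid1a transcript does not check the labels. Arid1a stood at -0.27, -0.13 and -0.16 in mutant and at -0.34, -0.32 and -0.38 in wild-type yolk sacs at E9.5, and at -0.09, 0.07 and 0.07 in mutant and -0.12, 0.04 and -0.02 in wild-type ones at E8.5.

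Promoter sequences from RefSeq (GRCm38.p6, 250 bases before to 50 bases after the annotated start, read 5′ to 3′ on the gene's strand) were at hand for 7 of the 10 genes. Col4a1 and Col4a2 are shown because they are neighbours that are read away from each other and because both rose with stage in the wild-type, as given below. Sparc and Lamb2 are shown because they are the members called between the genotypes. Capitals mark 2 motifs, each searched on both strands. One is the CCAAT box, which reads ATTGG where it lies on the opposite strand. The other is the GC box, spelled GGGCGG on one strand and CCGCCC on its complement. The letters TATAAA were searched in the same way and were in none of these 4 windows.
The windows lie at chr8:11312777-11313076 (minus strand), chr8:11312555-11312854 (plus), chr11:55420031-55420330 (minus) and chr9:108479612-108479911 (plus).
Col4a1: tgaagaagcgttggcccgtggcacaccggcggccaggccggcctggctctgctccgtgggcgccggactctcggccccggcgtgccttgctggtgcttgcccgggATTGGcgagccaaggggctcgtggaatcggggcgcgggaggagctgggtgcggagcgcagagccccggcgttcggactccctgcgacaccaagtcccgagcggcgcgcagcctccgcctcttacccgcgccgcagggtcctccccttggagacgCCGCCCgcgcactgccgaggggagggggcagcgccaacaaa
Col4a2: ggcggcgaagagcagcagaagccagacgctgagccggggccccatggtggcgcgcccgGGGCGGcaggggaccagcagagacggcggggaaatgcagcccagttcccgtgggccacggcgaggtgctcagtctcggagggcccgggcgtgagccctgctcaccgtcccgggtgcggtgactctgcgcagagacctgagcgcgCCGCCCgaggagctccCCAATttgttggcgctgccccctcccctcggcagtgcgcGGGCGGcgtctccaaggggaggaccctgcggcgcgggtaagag
Sparc: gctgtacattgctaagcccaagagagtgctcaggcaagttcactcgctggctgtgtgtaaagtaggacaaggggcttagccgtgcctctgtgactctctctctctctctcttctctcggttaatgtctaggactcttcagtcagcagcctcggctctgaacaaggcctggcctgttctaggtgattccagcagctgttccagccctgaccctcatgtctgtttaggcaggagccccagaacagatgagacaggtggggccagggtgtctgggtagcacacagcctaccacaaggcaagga
Lamb2: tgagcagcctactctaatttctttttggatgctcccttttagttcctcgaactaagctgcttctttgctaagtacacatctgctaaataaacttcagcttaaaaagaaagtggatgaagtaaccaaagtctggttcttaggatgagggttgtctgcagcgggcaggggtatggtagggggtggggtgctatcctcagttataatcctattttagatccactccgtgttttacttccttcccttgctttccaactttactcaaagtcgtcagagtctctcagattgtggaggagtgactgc

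The annotated starts of Col4a1 (11312826, minus strand) and Col4a2 (11312805, plus strand) are 21 bases apart. They lie such that the first bases of the annotated transcripts overlap, with no gap between them. The windows share 78 bases, printed once on each strand. The Col4a1 window held 1 CCAAT and 1 GGGCGG, and the Col4a2 window 1 CCAAT and 3 GGGCGG. One GGGCGG lies in the shared bases. The windows of Sparc and Lamb2 held none of the 3 motifs. Over all 32851 promoters in the table, 37.4% held CCAAT, 35.7% held GGGCGG and 13.6% held TATAAA. The share of G and C was 74.0% for Col4a1, 73.7% for Col4a2, 55.3% for Sparc and 44.0% for Lamb2, against a median of 52.7% over all promoters. Of the other members in the table, Lamb1 stood at 63.7%, Nid1 at 64.7% and Hspg2 at 70.3%. No binding or methylation was measured here, and a match of letters is a description of the window.

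Relative to whole neonatal mice, the members spread over a wide range. Lama1, the alpha1 chain of early embryonic laminin, was the single member whose brightest probe, which stands for the gene here, was above the reference on every array. Dimmer probes of Fn1 (0.34 to 1.13) and Col4a2 (0.22 to 0.63) were above it on all 12 as well. The log2 ratios of Lama1 were 1.51, 1.10 and 1.43 in mutant E9.5 and 1.08, 1.20 and 1.39 in wild-type E9.5 yolk sacs. At E8.5 they were 1.18, 1.43 and 1.22 in mutant and 1.03, 1.09 and 1.01 in wild-type ones. As group means these are 2.06 to 2.54 times the reference. The Lama1 probe was dim, with Cy3 well above background on 5 of 12 arrays. The gene's other probe, with Cy3 above background on 0 of 12, gave 0.19 to 0.54.

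Lamc1, the gamma1 chain, averaged -1.22 ± 0.08 in mutant and -1.23 ± 0.03 in wild-type yolk sacs at E9.5, and -1.45 ± 0.09 and -1.41 ± 0.04 at E8.5 (SD, n = 3 each). Lamb1, the beta1 chain, and Lamb2, the beta2 chain, lay between -0.38 and 0.36 on all arrays, with Lamb2 above the reference on all 3 mutant E9.5 arrays. Nid1, which binds both laminin and type IV collagen, was the lowest relative to the reference, with group means of -2.64 to -2.44, and Sparc, a collagen-binding glycoprotein, followed at -2.27 to -1.73. These are ratios to the reference gene by gene and do not rank the members by their amount in the yolk sac.

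**Figure D1:**
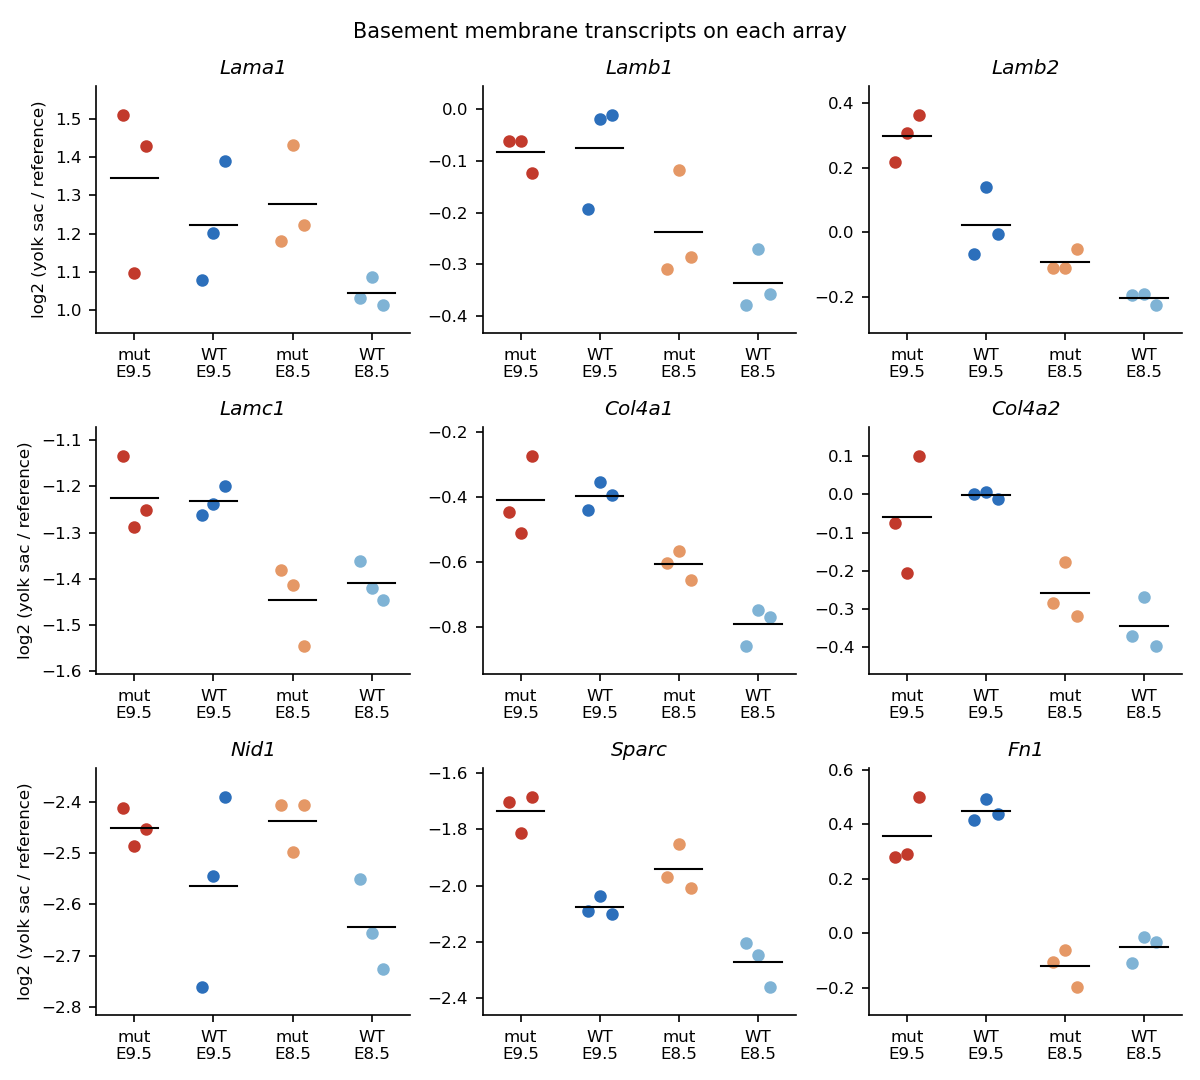
Each panel shows 1 member, with the log2 ratio of yolk sac over reference of each array (points, replicates 1 to 3 from left to right) and the group mean (line). The panels have their own axis ranges. By the brightest probe, Sparc and Lamb2 are higher in the mutant at both stages without overlap, though Lamb2 was not called at E8.5. Of all genes 8.05% were so higher at E9.5 and 9.69% at E8.5. Fn1, Col4a1, Lamb2, Lamc1 and Sparc are higher at E9.5 without overlap within each genotype. Of all genes 18.4% were so in the mutant and 19.2% in the wild-type.

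The comparison of E9.5 with E8.5 asks how these transcripts moved while the yolk sac vasculature remodels. Among mutant yolk sacs, 5 of the 9 members rose and 0 fell (limma, Benjamini-Hochberg adjusted p under 0.05 over all genes), where 11% of the 13894 genes tested rose and 10.6% fell. Among wild-type ones, 7 of 9 rose and 0 fell, where 12.8% of all genes rose and 11% fell. The median difference of the members was 0.20 in the mutant and 0.23 in the wild-type, against -0.008 and -0.01 over all genes. E9.5 arrays stood above all E8.5 arrays for 5 of 9 members in the mutant (18.4% of all genes) and for 7 of 9 in the wild-type (19.2%). Without the 3 arrays high in Prl4a1, 2 of 9 rose in the mutant and 4 of 9 in the wild-type, where 5.1% and 10.2% of all genes rose in that fit.

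Fn1, the cell-binding matrix glycoprotein fibronectin, had the largest difference with stage among the members by the brightest probe. Its log2 ratios were 0.28, 0.29 and 0.50 in mutant E9.5 yolk sacs, against -0.10, -0.06 and -0.19 in mutant E8.5 ones. In the wild-type they were 0.42, 0.49 and 0.44 at E9.5, against -0.11, -0.01 and -0.03 at E8.5. All 6 E9.5 arrays were above all 6 E8.5 arrays. Fn1 rose by 0.48 ± 0.07 in the mutant (SE, limma adjusted p = 0.000177) and by 0.50 ± 0.07 in the wild-type (adjusted p = 0.00011). Of its other probes, 1 gave 0.34 in the mutant and 0.37 in the wild-type, and a dim one gave 0.10 and -0.03. With the mean of its probes Fn1 rose by 0.30 in the mutant and 0.28 in the wild-type, below Lamb2 in the mutant (0.39) and below Col4a1 in the wild-type (0.41). Both calls of Fn1 held in all 26 alternatives of processing and left-out arrays.

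Col4a1 and Col4a2, whose chains join into the most widespread collagen IV trimer, followed a like course. Col4a1 stood at -0.45, -0.51 and -0.27 in mutant E9.5 yolk sacs, against -0.60, -0.57 and -0.66 in mutant E8.5 ones. In the wild-type it stood at -0.44, -0.35 and -0.39 at E9.5, against -0.86, -0.75 and -0.77 at E8.5. The stages did not overlap in either genotype, and the wild-type E8.5 arrays were the lowest 3 of the 12. Col4a1 rose by 0.20 ± 0.06 in the mutant (SE, limma adjusted p = 0.0394) and by 0.40 ± 0.06 in the wild-type (adjusted p = 0.000558), and its other probe gave 0.21 and 0.43. The call in the mutant was lost in 15 of 26 alternatives, among them the fit without any 1 mutant array except E9.5 replicate 2 (0.13 to 0.22) and the fit without the 3 arrays high in Prl4a1 (0.11, limma adjusted p = 0.42). The call in the wild-type was lost in 0 of 26.

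Col4a2 stood at -0.08, -0.20 and 0.10 in mutant E9.5 yolk sacs, against -0.28, -0.18 and -0.32 in mutant E8.5 ones, and these overlapped. In the wild-type it stood at 0.00, 0.01 and -0.01 at E9.5, against -0.37, -0.27 and -0.39 at E8.5, with no overlap. The difference was 0.20 ± 0.07 in the mutant (SE, limma adjusted p = 0.0625) and the rise 0.34 ± 0.07 in the wild-type (adjusted p = 0.00339). Its dimmer second probe gave 0.12 and 0.14. In the mutant E9.5 group, replicate 3 was the highest and replicate 2 the lowest for both Col4a1 and Col4a2, and replicate 3 was also the highest for Fn1. Replicate 3 is 1 of the 3 arrays high in Prl4a1. The other 2 such arrays were not the highest of their groups for Col4a1, Col4a2 or Fn1.

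Among the laminin chains, Lamb2 rose by 0.39 ± 0.06 in the mutant (SE, limma adjusted p = 0.000488) and by 0.23 ± 0.06 in the wild-type (adjusted p = 0.0154). Lamc1 rose by 0.22 ± 0.06 in the mutant (SE, limma adjusted p = 0.0161) and by 0.18 ± 0.06 in the wild-type (adjusted p = 0.0458), the second a call that was lost in 19 of 26 alternatives, among them the fit without any 1 of the 6 wild-type arrays (0.16 to 0.20). Without mutant E8.5 replicate 3 (0.17) or mutant E9.5 replicate 1 (0.18) the mutant call of Lamc1 was lost, and without wild-type E9.5 replicate 2 (0.17) the wild-type call of Lamb2. Lamb1 differed by 0.15 ± 0.07 in the mutant (SE, limma adjusted p = 0.121) and rose by 0.26 ± 0.07 in the wild-type (adjusted p = 0.0115). Lama1 differed by 0.07 ± 0.10 and 0.18 ± 0.10, neither called, with 95% intervals of -0.15 to 0.29 and -0.04 to 0.40.

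Sparc rose with stage by 0.21 ± 0.06 in the mutant (SE, limma adjusted p = 0.025) and by 0.19 ± 0.06 in the wild-type (adjusted p = 0.0334), and its other bright probe gave 0.35 and 0.37. These calls were lost in 9 and 11 of 26 alternatives. Single arrays that ended them were replicates 1 and 3 of both mutant groups (0.18 to 0.20), and wild-type E8.5 replicate 3 and all 3 wild-type E9.5 arrays (0.15 to 0.21). Nid1 differed by -0.01 ± 0.08 in the mutant and 0.08 ± 0.08 in the wild-type, with 95% intervals of -0.18 to 0.16 and -0.09 to 0.25. The perlecan probe differed by 0.06 ± 0.08 in both genotypes, also not called (limma adjusted p = 0.62 in the mutant and 0.642 in the wild-type).

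**Figure D2:**
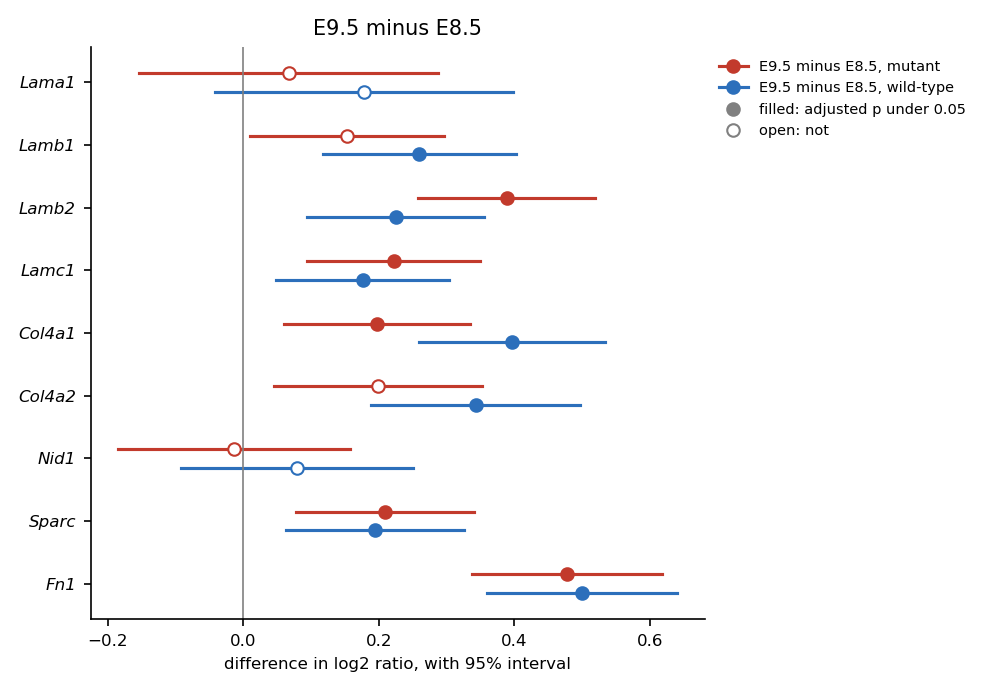
Differences of E9.5 minus E8.5 (log2) with 95% intervals for each member, mutant above wild-type. Filled points passed an adjusted p of 0.05: 5 in the mutant and 7 in the wild-type. Every point except Nid1 in the mutant lies above 0.

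RNA was taken from whole tissue, so more cells of a type and more RNA per cell cannot be told apart. Marker lists of the yolk sac's tissues also moved with stage, not all in the same direction. Over all genes 11% rose and 10.6% fell in the mutant, and 12.8% rose and 11% fell in the wild-type. In the list of mesoderm, mesothelium and smooth muscle, 8 of 16 genes rose in each genotype, among them the fibrillar collagens Col1a1, Col1a2 and Col3a1. In the mutant 2 of the 16 fell, Hand1 and Pdgfra, and in the wild-type 0. Its mean log2 ratio per array was -1.68 to -1.44 in mutant E9.5 and -1.67 to -1.57 in wild-type E9.5 yolk sacs, against -2.08 to -1.79 in mutant E8.5 and -2.29 to -2.08 in wild-type E8.5 ones. In visceral endoderm, 6 of 12 markers rose in each genotype, the same 6 being Afp, Apoa1, Apoa4, Apob, Rbp4 and Trf, with means of 1.99 to 2.26 and 2.14 to 2.27 against 1.67 to 1.72 and 1.55 to 1.77 in the same order of groups.

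The list of parietal endoderm markers, made without the members, had 3 of 14 higher and 3 lower at E9.5 in the mutant and 3 higher and 2 lower in the wild-type. Its mean was -0.34 to -0.31 in mutant E9.5 and -0.45 to -0.29 in wild-type E9.5 yolk sacs, against -0.37 to -0.30 and -0.43 to -0.36 at E8.5. In the endothelial list, 1 of 12 genes rose and 1 fell in the mutant, and 2 rose and 2 fell in the wild-type. In the blood list, 0 of 9 rose and 4 fell in the mutant, and 1 rose (Hbb-y) and 4 fell in the wild-type. The same 4 fell in both genotypes, Epor, Gata1, Klf1 and Tal1. The part of these tissues in the members' differences was not tested.

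Centring each array on its median in place of loess moved the median stage difference of all genes to 0.14 in the mutant and 0.11 in the wild-type, and the members' median to 0.43 and 0.42. Under that scaling 95.6% of the called genes in the mutant and 94.7% in the wild-type were higher at E9.5, against 50.8% and 53.9% under loess. Of the members 4 rose in the mutant and 5 in the wild-type.

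The comparison of mutant with wild-type asks which members differed with the Arid1a genotype. Sparc was higher in the mutant at both stages, and Lamb2 at E9.5. At E9.5, 2 of 9 members rose (0.914% of all genes did) and 0 fell (1.08% of all genes did). At E8.5, 1 of 9 rose (0.713% of all genes) and 0 fell (0.727%). Averaged over both stages, 2 of 9 rose (2.35% of all genes) and 0 fell (2.33%). The members' median difference was 0.008 at E9.5 and 0.11 at E8.5, against 0.0002 and 0.002 over all genes. With median centring it was -0.07 at E9.5 and 0.01 at E8.5, against -0.06 and -0.09 over all genes. With Xist as a covariate it was 0.02 and 0.06, against 0.002 and -0.003.

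Sparc had log2 ratios of -1.70, -1.81 and -1.68 in mutant and -2.09, -2.04 and -2.10 in wild-type yolk sacs at E9.5. At E8.5 it had -1.97, -1.85 and -2.01 in mutant, against -2.21, -2.25 and -2.36 in wild-type ones. The genotypes did not overlap at either stage, and the lowest mutant E9.5 array was above every other group. Sparc rose by 0.34 ± 0.06 at E9.5 (SE, limma adjusted p = 0.00785) and by 0.33 ± 0.06 at E8.5 (adjusted p = 0.0151), and by 0.33 ± 0.04 on average (adjusted p = 0.000367), or 1.26 times. It was higher in the mutant within each of the 3 scans at both stages, by 0.22 to 0.42 at E9.5 and by 0.24 to 0.39 at E8.5.

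The second Sparc probe, also bright, gave smaller differences of 0.16 at E9.5 and 0.19 at E8.5. At E9.5 it stood at -1.05, -1.14 and -0.97 in mutant and -1.28, -1.09 and -1.28 in wild-type yolk sacs. At E8.5 it stood at -1.36, -1.33 and -1.52 in mutant, against -1.61, -1.47 and -1.68 in wild-type ones. The genotypes overlapped at both stages. With the mean of both probes in place of the brightest, Sparc differed by 0.25 at E9.5 and 0.26 at E8.5, calls lost at both stages, and remained called on average. The call at E9.5 was lost in 7 of 26 alternatives and that at E8.5 in 13 of 26, among them the fits without mutant E8.5 replicate 2 (0.28, limma adjusted p = 0.0853) and without wild-type E8.5 replicate 3 (0.28, adjusted p = 0.0708). The average over stages was lost in 1 of 25, median centring (0.23, limma adjusted p = 0.363). Without the 3 arrays high in Prl4a1 the average was 0.33 (limma adjusted p = 0.00993), and the call was lost at E9.5 (0.30, adjusted p = 0.126) and at E8.5 (0.36, adjusted p = 0.0607).

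Lamb2 had log2 ratios of 0.22, 0.31 and 0.36 in mutant and -0.07, 0.14 and -0.01 in wild-type yolk sacs at E9.5. At E8.5 it had -0.11, -0.11 and -0.05 in mutant, against -0.19, -0.19 and -0.22 in wild-type ones. Neither pair overlapped. Lamb2 rose by 0.27 ± 0.06 at E9.5 (SE, limma adjusted p = 0.0304) and by 0.19 ± 0.04 on average (adjusted p = 0.0183), while at E8.5 it differed by 0.11 ± 0.06 (adjusted p = 0.504). The gene had 1 probe. The call at E9.5 was lost in 14 of 26 alternatives, among them the fits without mutant E9.5 replicate 2 or 3 or wild-type E9.5 replicate 1 or 3 (0.23 to 0.27), and the averaged one in 6 of 25, among them those without mutant E8.5 replicate 3 (0.18), without wild-type E9.5 replicate 1 (0.17) and without the 3 arrays high in Prl4a1 (0.16, limma adjusted p = 0.194).

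**Figure D3:**
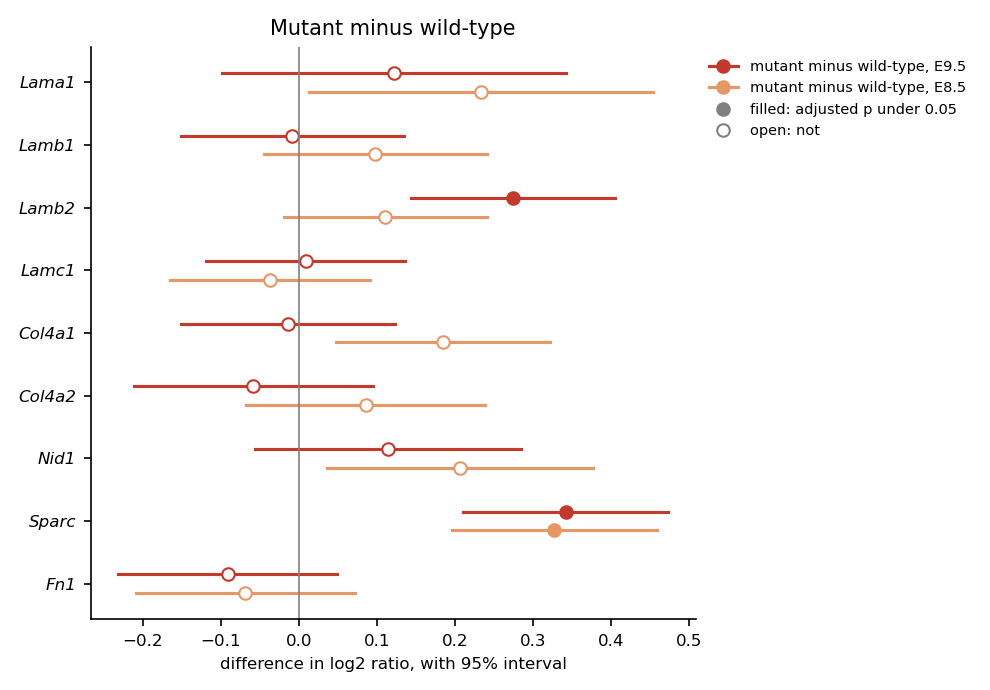
Differences of mutant minus wild-type (log2) with 95% intervals for each member, E9.5 above E8.5. Filled points passed an adjusted p of 0.05: Sparc at both stages and Lamb2 at E9.5. At E8.5, 7 of 9 points lie above 0, where 50.8% of all genes did.

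At E8.5 the mutant arrays stood above all wild-type arrays for 5 of 9 members, Lama1, Lamb2, Col4a1, Nid1 and Sparc, where 9.69% of all genes did so. Of these Sparc alone passed the adjusted threshold. The count is by the brightest probe. The second Lama1 probe, with Cy3 above background on 0 of 12 arrays, gave 0.05 and overlapped, and so did the second Sparc probe (0.19). The second Col4a1 probe (0.23) did not overlap. Nid1 differed by 0.21 ± 0.08 (SE, limma adjusted p = 0.284), Lama1 by 0.23 ± 0.10 (adjusted p = 0.365) and Col4a1 by 0.18 ± 0.06 (adjusted p = 0.213). At E9.5, 2 of 9 did not overlap and were higher, Sparc and Lamb2 (8.05% of all genes). Col4a1 then differed by -0.01 ± 0.06, with a 95% interval of -0.15 to 0.12, and Fn1 by -0.09 ± 0.07 (-0.23 to 0.05). Lamc1 differed by 0.008 ± 0.06 at E9.5 and -0.04 ± 0.06 at E8.5, and Lamb1 by -0.008 ± 0.07 and 0.10 ± 0.07. The perlecan probe differed by -0.04 ± 0.08 and -0.05 ± 0.08.

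Whether the genotype difference itself changed with stage was tested as an interaction. It was called for 0 of 9 members and 0 of 13894 genes (0%) by limma, and 795 genes (5.72%) had an unadjusted p under 0.05. Among the members that was Col4a1 alone, whose interaction was -0.20 ± 0.09 (SE, limma adjusted p = 0.853). Within the scans it was -0.26, -0.34 and 0.007. The interaction of Sparc was 0.01 ± 0.09 and that of Lamb2 0.16 ± 0.09, with 95% intervals of -0.17 to 0.20 and -0.02 to 0.35.

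Beside the members at E8.5, 4 of 16 genes of the mesoderm, mesothelium and smooth muscle list were higher in the mutant. They were Col1a1, Col3a1, Pdgfra and Postn, where 0.713% of all genes were called higher. At E9.5, 0 of the 16 changed. The mean of that list was -2.08 to -1.79 in mutant and -2.29 to -2.08 in wild-type yolk sacs at E8.5, and -1.68 to -1.44 and -1.67 to -1.57 at E9.5. Of the parietal endoderm list 2 of 14 were higher in the mutant at E8.5, Sox7 and Pdgfra, which the mesoderm list also holds, and 0 changed at E9.5. Of the endothelial list 2 of 12 were higher in the mutant at E8.5, Cldn5 and Sox17, and 0 changed at E9.5. Of the visceral endoderm list 0 of 12 changed between the genotypes at either stage. Whether these tissues account for the Sparc difference was not tested.

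**Figure D4:**
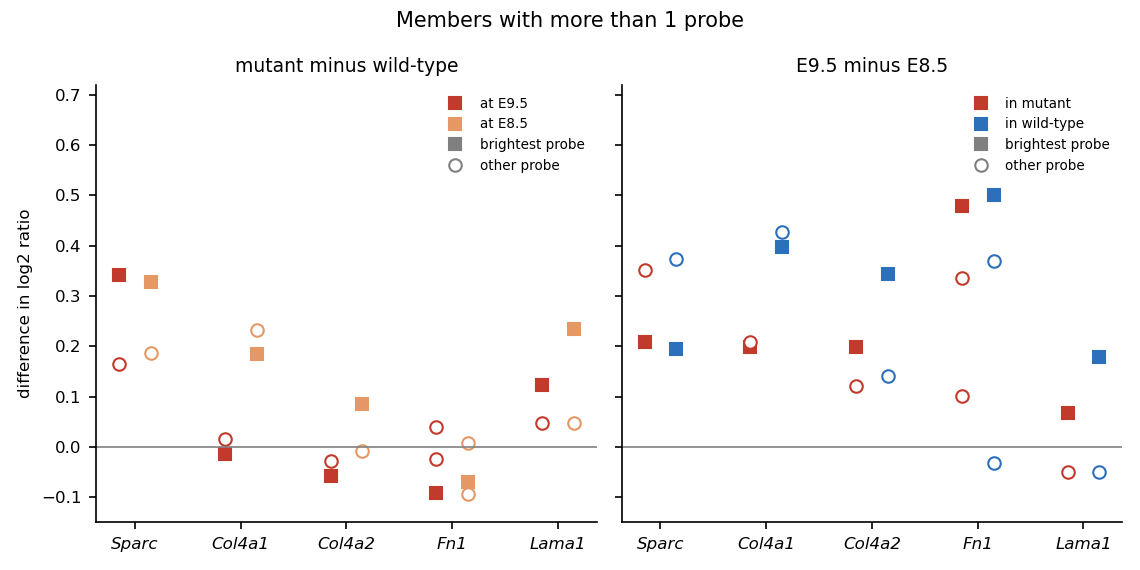
Differences (log2) for the 5 members with more than 1 probe, mutant minus wild-type on the left and E9.5 minus E8.5 on the right. Squares are the brightest probe, which stands for the gene, and circles the other probes. The second Sparc probe lies below the first between genotypes (0.16 and 0.19) and above it between stages (0.35 and 0.37).

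A wider list of 106 basement membrane genes, with 86 tested, was examined in the same fit. Between E9.5 and E8.5, 34 of 86 rose and 3 fell in the mutant, and 33 rose and 1 fell in the wild-type. Of all genes 11% rose and 10.6% fell in the mutant, and 12.8% rose and 11% fell in the wild-type. The genotypes shared 22 of the risers, 64.7% of those in the mutant and 66.7% of those in the wild-type. The share of all genes that rose in both is not given here. Without the 3 arrays high in Prl4a1, 15 rose and 1 fell in the mutant, and 28 rose and 1 fell in the wild-type. Of all genes 5.1% and 10.2% rose in that fit. With arrays left out, singly or all 4 of a replicate number, the genes called either way were 11 to 39 in the mutant and 19 to 36 in the wild-type, against 37 and 34. Single arrays that moved a count by over 1.5 times were mutant E9.5 replicate 3 (23 called) and mutant E8.5 replicates 1 (23) and 3 (24) in the mutant, and wild-type E8.5 replicate 3 (22) in the wild-type. The list's median difference was 0.17 in the mutant and 0.16 in the wild-type.

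The enzymes and chaperones that make collagen had the highest share, with 10 of 17 rising and 2 falling in the mutant and 9 of 17 rising in the wild-type. Here and for the lists below, the shares of all genes were 11% rising and 10.6% falling in the mutant. In the wild-type they were 12.8% and 11%. P3h3, a member of the collagen prolyl 3-hydroxylase family, rose by 0.79 ± 0.08 in the mutant (SE, limma adjusted p = 2.26e-05) and by 0.77 ± 0.08 in the wild-type (adjusted p = 3.08e-05). It stood at -0.34, -0.48 and -0.33 in mutant E9.5 yolk sacs, against -1.16, -1.20 and -1.15 in mutant E8.5 ones. P3h2, of the same family, went the other way in the mutant, at 0.48 to 0.53 at E9.5 against 0.70 to 0.91 at E8.5. In the wild-type P3h2 overlapped, at 0.31 to 0.54 against 0.53 to 0.59. Klhl12, also of this list, was lower in the mutant at E9.5 too (at most 0.05, against at least 0.17 at E8.5). In the wild-type Klhl12 was likewise lower without overlap, at -0.06 to 0.14 against 0.15 to 0.21, but was not called. Serpinh1, the collagen chaperone Hsp47, rose by 0.45 ± 0.07 in the mutant (SE, limma adjusted p = 0.000377) and by 0.42 ± 0.07 in the wild-type (adjusted p = 0.000557). P4ha2 and P4hb, subunits of prolyl 4-hydroxylase, rose by 0.57 ± 0.10 and 0.38 ± 0.07 in the mutant, and by 0.49 ± 0.10 and 0.33 ± 0.07 in the wild-type. These enzymes also act on fibrillar collagens, which rose in the same comparison.

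Of the other laminin chains, 0 of 4 rose in the mutant and 1 in the wild-type, and of the collagen IV chains and crosslinking enzymes, 3 of 7 and 2 of 7. Of all genes 11% rose in the mutant and 12.8% in the wild-type, while 10.6% and 11% fell. Loxl1, a lysyl oxidase that crosslinks matrix, rose by 0.44 ± 0.06 in the mutant (SE, limma adjusted p = 0.000278). Of the matrix receptors, 6 of 24 rose in the mutant, and 8 rose and 1 fell in the wild-type. Itgb4, the integrin beta4 chain that pairs with alpha6 to bind laminin, rose by 0.51 ± 0.06 in the mutant (SE, limma adjusted p = 6.28e-05) and by 0.53 ± 0.06 in the wild-type (adjusted p = 4.8e-05). Of the proteases and inhibitors, 8 of 16 rose and 1 fell in the mutant and 6 rose in the wild-type, among them in both Timp1, an inhibitor of matrix metalloproteases, Mmp14, a membrane-bound one, and Plaur, the urokinase receptor. Of nidogens, proteoglycans and other basement membrane proteins, 7 of 18 rose in each genotype.

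**Figure D5:**
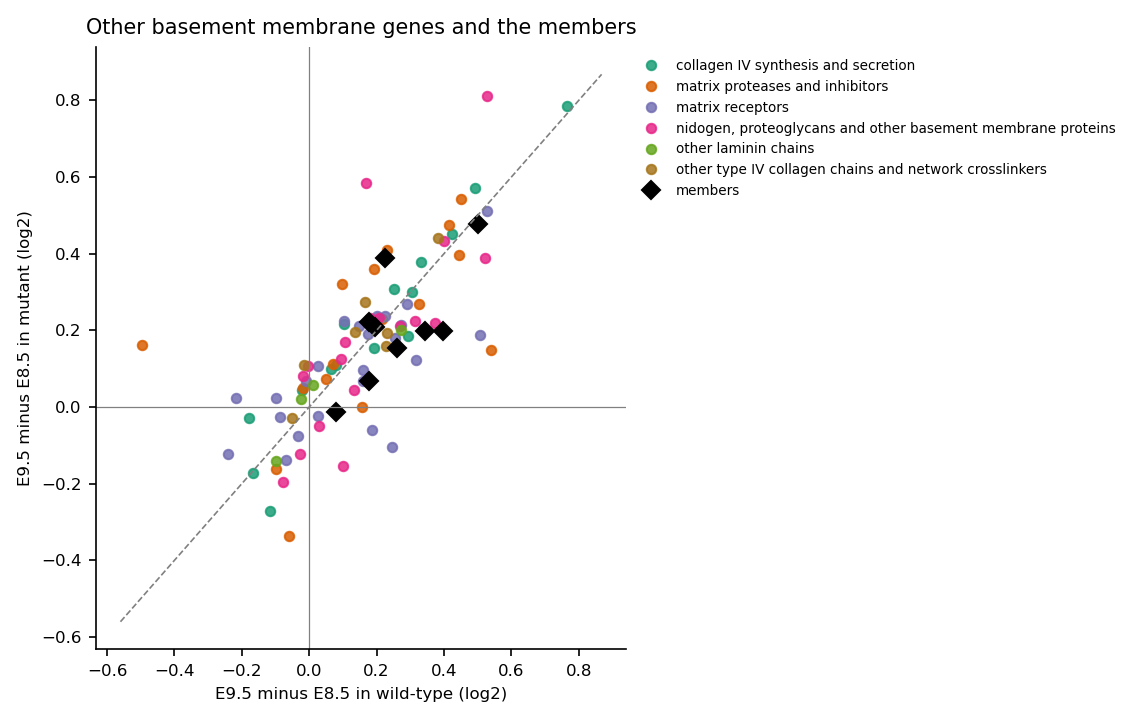
Difference of E9.5 minus E8.5 (log2) in the mutant (vertical) against the wild-type (horizontal) for the 86 genes of the wider list, coloured by role, and the 9 members (diamonds). The dashed line marks equal differences. Most points lie above 0 on both axes, and P3h3 is the farthest to the upper right, at 0.79 and 0.77.

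Between the genotypes few genes of the wider list were called. At E9.5, 2 of 86 rose (0.914% of all genes did) and 1 fell (1.08%). At E8.5, 1 rose (0.713% of all genes did) and 0 fell (0.727%). Vwa1, a matrix protein that binds perlecan, had log2 ratios of 0.07, 0.00 and 0.03 in mutant and -0.15, -0.37 and -0.37 in wild-type yolk sacs at E9.5. At E8.5 it had 0.21, 0.08 and 0.18 in mutant, against -0.39, -0.16 and -0.25 in wild-type ones, with no overlap at either stage. It rose by 0.33 ± 0.07 at E9.5 (SE, limma adjusted p = 0.0304) and by 0.42 ± 0.07 at E8.5 (adjusted p = 0.00933).

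Tgfbi, a secreted protein induced by TGF-beta that binds collagen and integrins, stood at -2.14, -2.46 and -2.49 in mutant and -2.94, -2.78 and -2.83 in wild-type yolk sacs at E9.5 and rose by 0.48 ± 0.09 (SE, limma adjusted p = 0.0129). Itgb5, the integrin beta5 chain of a vitronectin receptor, stood at -0.75, -0.81 and -0.80 in mutant, against -0.37, -0.38 and -0.51 in wild-type ones, and fell by 0.36 on the log2 scale (SE 0.07, limma adjusted p = 0.0105). Neither overlapped at E9.5. Averaged over stages 5 of 86 rose (2.35% of all genes did), these being Vwa1, Tgfbi, Itgb4, Tinag and Agrn. Another 3 fell (2.33% of all genes did), Timp2, Itgb5 and Smoc1. The interaction was called for 0 of 86. Without the 3 arrays high in Prl4a1, and with median centring, 0 of 86 were called at either stage. At E9.5, 0 of 86 were called higher with the processed signals and 0 of 87 with the deposited table. The calls of Vwa1 and Tgfbi were thus lost there. Without mutant E9.5 replicate 2, and also without wild-type E9.5 replicate 2, 1 of 86 was called higher at E9.5 and 0 lower. The call of Itgb5 was thus lost in both fits, and so was that of Vwa1, Tgfbi or both. Without all arrays of replicate number 1, or of replicate number 3, 0 of 86 were called at either stage. At E8.5, 0 of 86 were called with Xist as a covariate.

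Among the genes whose log2 ratios over the 12 arrays were most like those of Col4a1, of 12290 official symbols, were Cldn5, a tight junction protein of endothelium (Pearson r = 0.954), and Twf2, an actin-binding protein (0.950). Cldn5 stood between -1.11 and -1.02 in mutant E9.5 yolk sacs, against -1.23 to -1.22 in mutant E8.5 ones. It reached -0.97 in wild-type E9.5 yolk sacs, against -1.50 to -1.39 in wild-type E8.5 ones. As for Col4a1, the wild-type E8.5 arrays were its lowest 3, which the choice of Cldn5 by r over these same arrays favours. For Lama1 the most alike were Sfxn4 (0.881), Pdcd4 (0.863) and Arhgef39 (0.828). These r values share arrays, group differences and the reference, and were the highest of many, so they are a description of these arrays.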

How the data were processed

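Yolk sac RNA (Cy5) was measured against a common neonatal reference RNA (Cy3) on 12 Agilent 2-colour arrays without dye swap, 3 per group. The scanner software was Agilent Feature Extraction, version 9.5.1.1 in the file headers. For each channel the deposited scanner files give mean intensity and median local background intensity, unnormalized, and, per the file headers, a log10 ratio of processed Cy5 over Cy3. The flags for spots well above background or saturated hold 0 or 1, per the file headers. A deposited table of log2 ratios (19033 entries), which the authors centred probe by probe, served as an alternative (it lacks Lama1). The choice of its entries was not given in the sources used here.

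In R 4.3.3 with limma 3.58.1, intensities were corrected with normexp (offset 50), and log2 ratios were normalized by loess within each array, control spots at weight 0. Outlier spots, and 6 spots over 20 units below local background, were set to missing. The 20064 probes kept had Cy5 flagged as well above background on every array of some group. This filter kept all 9 members found, on all 12 arrays. The brightest probe stands for a gene (13894 genes, 12299 with an official symbol). Probes were named through RefSeq by accession (23477), symbol (6678) or older symbol (2891), and 8128 kept the files' name or probe ID.

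Limma was fitted to all 12 arrays with 4 group means (8 residual and 6.22 prior degrees of freedom), with Benjamini-Hochberg adjustment over all genes. Calls are at an adjusted p under 0.05. P-values measure the spread between these samples. The fit was tested on simulated data. Alternatives were processed signals, median centring, an offset of 10, the deposited table, no filter, the mean of probes, replicate number as a block, array weights, separate fits, Xist as a covariate, and leaving out arrays. Per the file headers, a replicate number marks a scan of 4 arrays, 1 per group, with 2 slide barcodes for the 3 scans. Deviations of same-numbered arrays from their group means correlated with r of -0.007 to 0.42 (median 0.23, 18 pairs), against -0.40 to 0.12 (median -0.10, 36 pairs) for others.

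The members and the gene lists were chosen with earlier results of these data known. Named were all members, genes of the wider list that passed the threshold, and the 3 genes most like Col4a1 and Lama1, of which 1 is not reported here. Probe coordinates were not used here, since their build is not named.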

Additional observations from a re-analysis of the deposited data

How the results depend on the processing

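The count of members that passed an adjusted p of 0.05 (5 between stages in the mutant, 7 in the wild-type, and 2, 1, 2 and 0 for genotype at E9.5, at E8.5, averaged over stages and for the interaction) moved by over 1.5 times under these settings, and the cause was not tested. In the mutant stage comparison it was 2 with Xist as a covariate and 2 without the 3 arrays high in Prl4a1, and in the wild-type 3 and 4. At E9.5 it was 0 with the processed signals, with median centring, with the deposited table and without the 3 arrays, and 1 with an offset of 10, the mean of probes, separate fits and the Xist covariate. At E8.5 it was 0 under all of those 8 settings. The average count was 0 with median centring and 1 without the 3 arrays. Without 1 array at a time the counts ranged from 2 to 6 (mutant stage), 3 to 7 (wild-type stage), 0 to 2 (E9.5), 0 to 1 (E8.5), 1 to 3 (average) and 0 to 0 (interaction), leaving out the 4 arrays of a replicate number included. Single arrays that moved a count by over 1.5 times were mutant E9.5 replicates 1 (2) and 3 (3) and mutant E8.5 replicates 1 (3) and 3 (2) for the mutant stage count, wild-type E9.5 replicate 2 (4) for the wild-type one, replicates 2 and 3 of mutant E9.5 (1 each) and replicates 1 and 3 of wild-type E9.5 (1 each) at E9.5, replicate 2 of mutant E8.5 (0) and replicate 3 of wild-type E8.5 (0) at E8.5, and replicate 3 of mutant E8.5 (1) and replicate 1 of wild-type E9.5 (1) on average. Replicate numbers mark a scan, and with the replicate block the member counts were 5, 7, 2, 1, 2 and 0, so the pairing changed none of these counts.

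Signs turned only in member differences that were not called. They did so with the Xist covariate in Lamb1 (0.021) and Lamc1 (-0.0039) at E9.5 and in the Lama1 interaction (0.014), and with array weights in Lamb1 at E9.5 (0.020). The deposited table did so in Col4a1 (0.011) and Lamb1 (0.0073) at E9.5 and Nid1 with stage in the mutant (5.21e-05). The mean of probes did so in Col4a1 at E9.5 (0.00087), Col4a2 on average (-0.0023) and the interactions of Sparc (-0.0035) and Fn1 (0.026). Median centring did so in Col4a2 (-0.028) and Lamb1 (-0.022) at E8.5, Lamc1 at E9.5 (-0.067), Col4a1 (-0.016), Col4a2 (-0.081) and Lamb1 (-0.055) on average, the Fn1 interaction (0.017) and Nid1 with stage in the mutant (0.23). An offset of 10 did so in Lama1 (-0.044) and Nid1 (0.029) with stage in the mutant. Processed signals did so in Col4a1 (0.011) and Lamb1 (0.0073) at E9.5, the Lama1 interaction (0.15), Lama1 with stage in the wild-type (-0.073) and Nid1 in the mutant (5.24e-05). Leaving out the 3 arrays did so in Lamc1 at E8.5 (0.012), Lamb1 at E9.5 (0.044), Col4a2 (-0.014) and Lamc1 (0.026) on average, the interactions of Nid1 (0.012) and Sparc (-0.056), Nid1 with stage in the wild-type (-0.0080), and Lama1 (-0.0024) and Nid1 (0.0038) in the mutant.

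Without 1 array, or without the 4 arrays of a replicate number, signs also turned in differences that were not called, which ranged at E8.5 from -0.070 to 0.012 for Lamc1. At E9.5 they ranged from -0.083 to 0.057 for Col4a1, -0.14 to 0.018 for Col4a2, -0.078 to 0.044 for Lamb1, -0.051 to 0.040 for Lamc1, -0.032 to 0.25 for Lama1 and -0.0030 to 0.20 for Nid1, and on average from -0.027 to 0.050 for Col4a2 and -0.049 to 0.016 for Lamc1. The interaction ranged from -0.15 to 0.044 for Fn1, -0.0055 to 0.097 for Lamc1, -0.052 to 0.11 for Sparc, -0.31 to 0.057 for Lama1 and -0.24 to 0.053 for Nid1. With stage, Nid1 ranged from -0.044 to 0.0045 in the mutant and -0.049 to 0.22 in the wild-type, and Lama1 from -0.065 to 0.27 in the mutant.

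Over all genes, the counts called were 2997 (mutant stage), 3308 (wild-type stage), 277 (E9.5), 200 (E8.5), 651 (average) and 0 (interaction). In the same order they were 1757, 1458, 26, 10, 158 and 0 with median centring, 1393, 2274, 134, 24, 574 and 0 with the Xist covariate, and 1346, 2502, 124, 86, 322 and 2 without the 3 arrays. The E9.5 count was 173 with processed signals and 181 with the deposited table, the E8.5 count 392 with array weights and 123 from the E8.5 arrays alone, and the interaction count 2 with array weights and 1 with the replicate block. With median centring 19.2% of the calls at E9.5, 20% at E8.5 and 14.6% on average were higher in the mutant, against 45.8%, 49.5% and 50.2%. The number of arrays limits the precision.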
